A study of Mus musculus with 4 samples.

Results

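The genes described here encode the proteins that MLL fusions are built from and work with: Mll1 and Mllt3, whose products are joined in the Mll-AF9 fusion of this leukaemia, the further fusion partners Mllt1, Mllt10, Aff1 and Aff4, and the cofactors Men1, Psip1 and Dot1l. They were taken by name, with earlier results of these data known, and all 9 were found among the 23235 genes of the deposited tables. All 9 reached 1 FPKM in every library and so were tested. FPKM (fragments per kilobase of transcript scaled to the mapped fragments of the library) is a level per length of transcript, which allows levels of different genes to be set side by side.

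RNA came from acute myeloid leukaemia of genotype NRASG12V/Mll-AF9, grown for 20 days in SCID/Beige mice after tail-vein injection of the leukaemia cells; these hosts lack functional B and T cells and have impaired natural killer cells, and keep their own red cell, platelet and stromal cells. One library had NRASG12V on, without doxycycline as its column heading of 0 hours implies. The other 3 had NRASG12V off, after doxycycline for 48 h, 72 h and 96 h. Every library carried the Mll-AF9 fusion, no library had doxycycline with NRASG12V on, and the labels name neither the tissue harvested nor whether each library is a separate mouse. Drug, elapsed time and oncogene loss therefore cannot be told apart. The p-values reflect how far the off libraries spread, which takes in their different times and may otherwise be technical.

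MLL, the product of Mll1 (now named Kmt2a), is a histone H3 lysine 4 methyltransferase that keeps Hox genes active in blood progenitors. In leukaemia its amino-terminal part is fused to a partner, and that part reaches chromatin through menin (Men1) and LEDGF (Psip1). AF9 (Mllt3) and its close relative ENL (Mllt1) read acylated histones through a YEATS domain and bind either the histone H3 lysine 79 methyltransferase DOT1L, with AF10 (Mllt10), or the super elongation complex, which is scaffolded by AF4 (Aff1) and AF5q31 (Aff4). AF9 and DOT1L are also known from normal blood formation, in stem cells and in the erythroid lineage. Values are per gene, so that they do not tell a fused from an unfused Mll1 or Mllt3 transcript. Whether the fusion construct is of human or mouse sequence is not stated in the labels, so how far its reads count towards the Mll1 and Mllt3 levels and ratios below is unknown.

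Off against on, 4 of the 9 genes rose, none fell and 5 did not pass the test. Those that rose were Mllt3, Psip1, Dot1l and Mll1, by 1.34, 1.0, 0.64 and 0.58 on the log2(FPKM + 1) scale. The test was limma over 11958 genes with Benjamini-Hochberg adjustment at 0.05, in which 11.8% of all genes were called up, 15.2% down and 27.0% in either direction. The same 4 members had an unadjusted p under 0.05, as did 4955 genes in all. The median change was 0.30 over the 9 genes and -0.08 over all genes tested. The fit sets 3 off libraries of different times against 1 on library and takes that lone library to vary like the others.

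The sequences just upstream of the transcription start are shown for 3 of the genes that rose, Mllt3, Mll1 and Dot1l, and for Mllt1, the relative of Mllt3 that did not pass. They are the 250 bases before the outermost start listed by RefSeq on build GRCm38.p6, read in the direction of the gene; 8 of the 9 genes matched this table, and Psip1 did not. The windows lie at chr4:88033408-88033657 (minus strand, Mllt3), chr9:44881290-44881539 (minus, Mll1), chr10:80754953-80755202 (plus, Dot1l) and chr17:56935389-56935638 (minus, Mllt1). Capitals mark motif matches on either strand. The GC box was searched as GGGCGG, and its matches can overlap one another. For ETS factors the letters searched were CCGGAAG. For GATA factors, which include the main regulators of erythroid genes, they were AGATAA. The last motif was the CCAAT box.

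Mllt3: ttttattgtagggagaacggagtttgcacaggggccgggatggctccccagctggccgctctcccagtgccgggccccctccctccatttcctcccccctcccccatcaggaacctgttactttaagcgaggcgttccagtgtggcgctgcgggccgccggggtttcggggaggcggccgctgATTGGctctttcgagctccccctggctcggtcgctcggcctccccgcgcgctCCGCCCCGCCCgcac
Mll1: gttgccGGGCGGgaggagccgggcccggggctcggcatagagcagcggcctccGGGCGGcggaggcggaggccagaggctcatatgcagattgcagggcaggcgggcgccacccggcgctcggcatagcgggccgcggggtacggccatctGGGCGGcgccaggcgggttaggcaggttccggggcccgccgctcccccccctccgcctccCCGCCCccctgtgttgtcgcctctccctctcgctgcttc
Dot1l: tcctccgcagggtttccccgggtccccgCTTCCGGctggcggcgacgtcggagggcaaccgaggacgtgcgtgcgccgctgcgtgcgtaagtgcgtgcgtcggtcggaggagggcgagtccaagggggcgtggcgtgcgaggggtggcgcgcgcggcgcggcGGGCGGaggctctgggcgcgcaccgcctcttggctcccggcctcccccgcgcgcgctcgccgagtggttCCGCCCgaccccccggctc
Mllt1: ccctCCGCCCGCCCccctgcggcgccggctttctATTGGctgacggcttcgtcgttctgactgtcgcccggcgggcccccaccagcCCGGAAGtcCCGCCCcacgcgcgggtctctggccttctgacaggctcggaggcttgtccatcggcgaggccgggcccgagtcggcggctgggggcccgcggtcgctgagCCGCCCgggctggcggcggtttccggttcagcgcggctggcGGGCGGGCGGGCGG

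These windows were rich in G and C, at 69.2% for Mllt3, 76.8% for Mll1, 78.4% for Dot1l and 77.6% for Mllt1, beside a median of 52.4% over 32841 windows of the same length. They held 23, 29, 44 and 37 CG pairs in that order, where the median window held 6. GC boxes numbered 2, 4, 2 and 7, and 32.8% of all windows held at least 1. The ETS motif stood once in Dot1l and once in Mllt1 (6.91% of all windows), the CCAAT box once in Mllt3 and once in Mllt1 (33.9%), and the GATA motif in none of the 4 (9.99%). Mllt1, which did not pass the test, thus carried the most GC boxes of the 4. Mllt3 has a further listed start, whose window held 45.2% G and C, 4 CG pairs, 0 GC boxes and 2 CCAAT boxes. Outermost windows of the uncalled Aff1 and Aff4 were at 78.8% and 79.2% G and C, those of Men1 and Mllt10 at 52.0% and 42.4%. A match is a description of these letters, not a bound site.

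Of the 2 genes joined in the fusion, Mllt3 had a level of 4.0 FPKM with NRASG12V on; off, it had 8.78 FPKM after 48 h, 12.9 FPKM after 72 h and 14.0 FPKM after 96 h. Every off library lay above the on library, by 2.19-, 3.23- and 3.51-fold in FPKM. With 1 on library that order alone says little, and Mllt10 and Aff1, which did not pass, showed it too. Within each table the log2 change was 0.97, 1.47 and 1.58, and over the 3 off libraries it was 1.34 ± 0.33 (SD, n = 3; limma, Benjamini-Hochberg adjusted p = 0.00832). This change lay at percentile 96.7 of all genes tested. Mllt3 passed the test under each of the 11 alternative fits, with limma adjusted p up to 0.0422.

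Mll1, the other gene of the fusion, was the lowest of the 9 in every library: 2.99 FPKM on, then 4.87, 5.43 and 4.63 FPKM. All 3 off libraries lay above the on library, with the 72 h library highest. Its log2 change was 0.56, 0.68 and 0.49 by time and 0.58 ± 0.10 over the 3 (SD, n = 3; limma, Benjamini-Hochberg adjusted p = 0.0457). That call sits at the threshold: without the 72 h library the limma adjusted p was 0.195, and 4 further alternatives also ended it. Between 48 h and 96 h the change of Mll1 differed by -0.07, whereas that of Mllt3 differed by 0.61, so the ratio of Mllt3 to Mll1 went from 1.34 on to 1.80, 2.38 and 3.03.

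**Figure D1:**
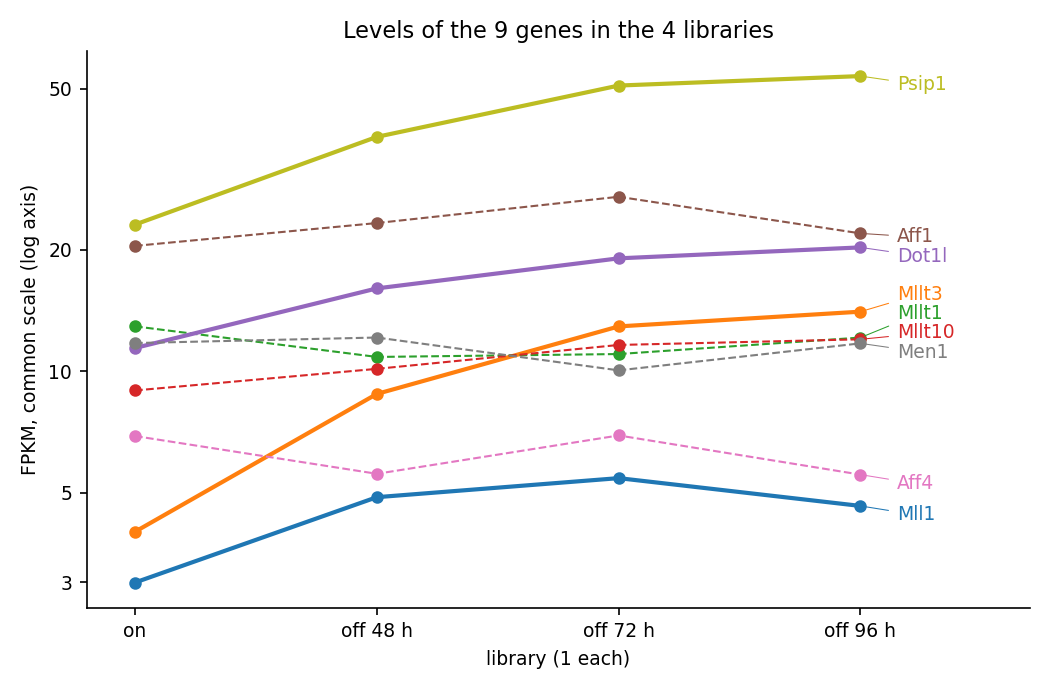
FPKM (log axis, common scale) of the 9 genes in the on library and in the off libraries at 48 h, 72 h and 96 h, with 1 point per library; solid lines mark the genes that passed limma's test and dashed lines those that did not. Mllt3 climbs from 4.0 to 14.0 FPKM and crosses Mllt1, Mllt10 and Men1, while Psip1 is highest and Mll1 lowest throughout.

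Mllt1 (ENL), which shares the YEATS domain and the partners of AF9, measured 12.9 FPKM on and 10.8, 11.02 and 12.1 FPKM off. All 3 off values lay a little below the on value. Its log2 change of -0.18 ± 0.08 (SD, n = 3) did not pass (limma, Benjamini-Hochberg adjusted p = 0.492). The ratio of Mllt3 to Mllt1 within a library, which no scaling between libraries can alter, was 0.310 on and 0.810, 1.17 and 1.16 off. Mllt3 was therefore the lower of the pair in the on and 48 h libraries and the higher at 72 h and 96 h. On the log2 scale this ratio moved by 1.74 ± 0.30 (SD, n = 3), with 1 on library and no test of the ratio.

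Of the pair that places the lysine 79 mark, the methyltransferase gene Dot1l measured 11.4 FPKM on and 16.0, 19.0 and 20.2 FPKM off. Each off library lay above the on library, and the log2 change was 0.46, 0.69 and 0.78. Over the 3 libraries Dot1l rose by 0.64 ± 0.17 (SD, n = 3; limma, Benjamini-Hochberg adjusted p = 0.0452). Without the 72 h library the limma adjusted p was 0.171, with a change of 0.62, and the call also ended with no filter on low values (0.0844) and with eBayes using neither trend nor robust settings (0.0563). Its partner Mllt10 (AF10), which stimulates DOT1L on chromatin, was at 8.95 FPKM on and 10.1, 11.6 and 11.98 FPKM off. All 3 off values of Mllt10 were above the on value, yet its change of 0.30 ± 0.12 (SD, n = 3) did not pass (limma, Benjamini-Hochberg adjusted p = 0.268). The ratio of Dot1l to Mllt10 was 1.27 on and 1.58, 1.64 and 1.69 off.

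The tethering cofactors parted. Psip1, whose product LEDGF reads lysine 36 methylation of histone H3 and is also known as the anchor of HIV integrase, was the highest of the 9 in every library: 23.1 FPKM on, then 38.0, 50.9 and 53.8 FPKM. Every off library lay above the lone on library, by 1.65-, 2.21- and 2.33-fold in FPKM. Psip1 rose by 1.0 ± 0.26 (SD, n = 3; limma, Benjamini-Hochberg adjusted p = 0.0178), at percentile 94.0 of all genes tested. With no filter on low values the limma adjusted p was 0.0570, and the other 10 alternatives kept the call.

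Men1, which encodes the menin scaffold, measured 11.7 FPKM on and 12.1, 10.04 and 11.7 FPKM off, so that the on value lay inside the range of the off values. Its change was -0.06 ± 0.13 (SD, n = 3; limma, Benjamini-Hochberg adjusted p = 0.850), and the sign turned under 3 alternatives. The ratio of Psip1 to Men1 was 1.97 on and 3.14, 5.07 and 4.59 off. That of Mll1 to Men1 was 0.255 on and 0.402, 0.541 and 0.396 off. Both ratios were higher in each off library than in the on library, which largely restates that Psip1 and Mll1 were called up and Men1 was not.

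Among the elongation scaffolds, Aff1 (AF4) was at 20.4 FPKM on and at 23.3, 27.0 and 21.9 FPKM off. Its change of 0.22 ± 0.15 (SD, n = 3) did not pass (limma, Benjamini-Hochberg adjusted p = 0.423). Aff4, the scaffold shared by most super elongation complexes, was at 6.90 FPKM on and at 5.57, 6.93 and 5.54 FPKM off, with the 72 h library level with the on library. The change of Aff4 was -0.18 ± 0.16 (SD, n = 3; limma, Benjamini-Hochberg adjusted p = 0.522). Aff1 exceeded Aff4 by 2.96-fold in the on library and by 4.18-, 3.90- and 3.96-fold in the off libraries. A p above the threshold does not show that these genes kept their level: the standard error was 0.20 for Aff1 and for Aff4.

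**Figure D2:**
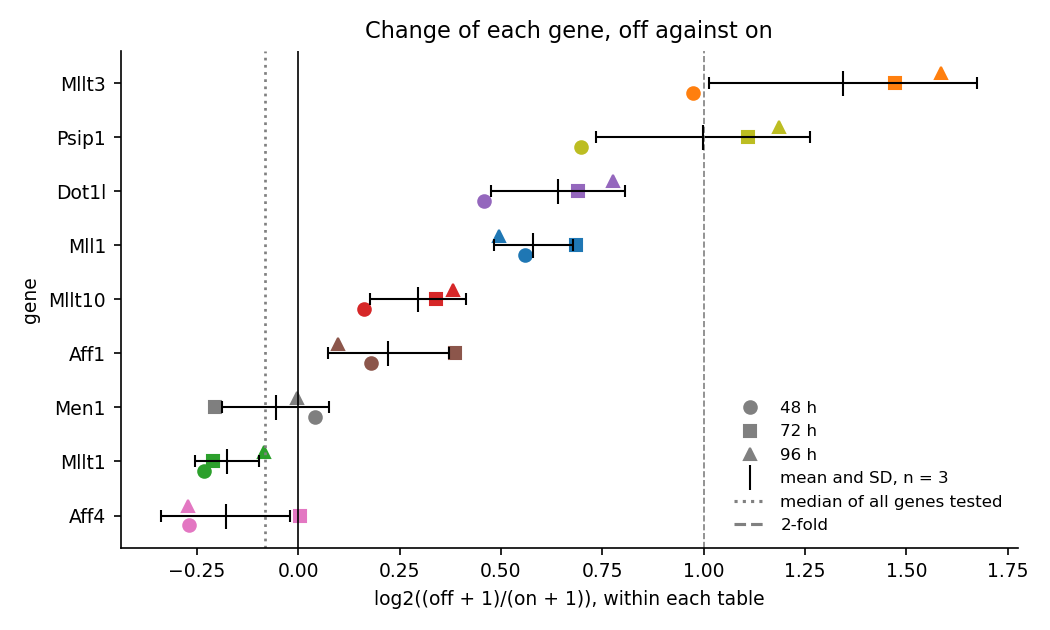
Log2 change of each gene within the table of each time (circle 48 h, square 72 h, triangle 96 h), with the limma mean and the SD over the 3 off libraries; the dotted line is the median of all genes tested and the dashed line a 2-fold rise. Mllt3, Psip1, Dot1l and the uncalled Mllt10 and Mllt1 lie further right at 72 h and 96 h than at 48 h. Mll1, Aff1 and Aff4 lie furthest right at 72 h. Men1, Mllt1 and Aff4 lie around 0.

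In the order of levels, the off libraries ran from Psip1 through Aff1 and Dot1l to a group of Mllt3, Mllt1, Men1 and Mllt10, and then to Aff4 and Mll1. Within that group of 4 no neighbours differed beyond their spread: the mean log2 ratio was 0.05 ± 0.30 for Mllt3 over Mllt1, 0.0074 ± 0.15 for Mllt1 over Men1 and 0.0051 ± 0.24 for Men1 over Mllt10 (SD, n = 3). The other neighbours kept their order in all 3 off libraries, with Aff1 over Dot1l the closest to its spread at 0.39 ± 0.24 and Aff4 over Mll1 at 0.27 ± 0.08. Mllt3 was ranked 8 of 9 in the on library, 7 at 48 h and 4 at 72 h and 96 h. The highest member exceeded the lowest 7.70-fold on and 11.6-fold at 96 h.

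**Figure D3:**
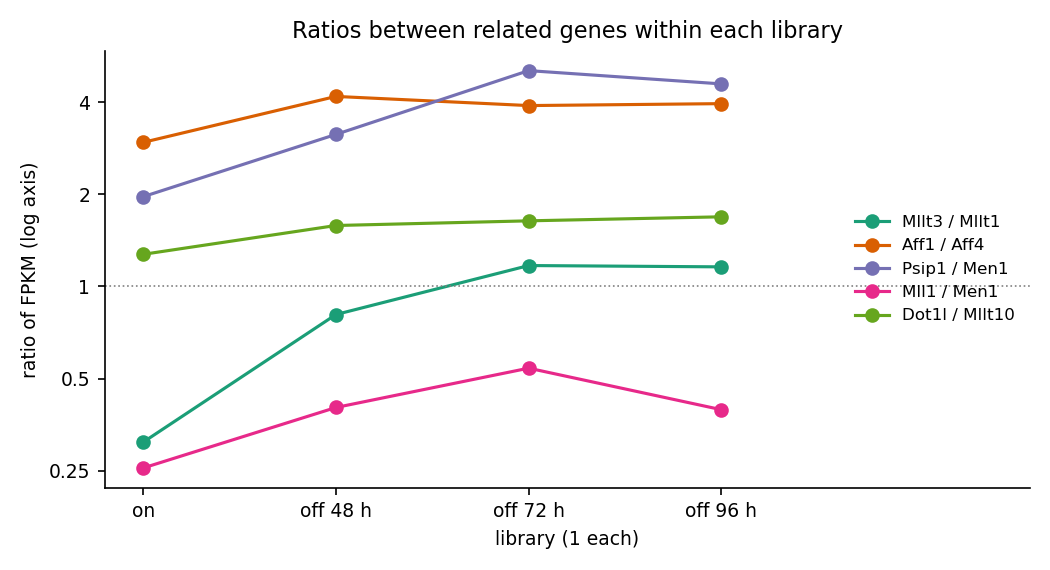
Ratio of FPKM between related genes (log axis) within the on library and each off library, 1 point per library; the dotted line is a ratio of 1. All 5 ratios are higher in each off library than in the on library, and Mllt3 over Mllt1 goes from 0.310 to above 1 at 72 h and 96 h. Except in Aff1 over Aff4, the upper gene was called up and the lower was not. Higher ratios there largely restate those calls.

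Time by time, with 1 library on each side and no p, no member passed 2-fold in either direction at 48 h on the log2(FPKM + 1) scale used for these counts, a change that 5.0% of genes showed upward and 4.85% downward. Mllt3 was nearest, at 0.97 on that scale (2.19-fold in FPKM itself), and a pseudocount of 0.1 FPKM or either rescaling put it past 2-fold. At 72 h, 2 members, Mllt3 and Psip1, were at least 2-fold higher and none lower (6.61% and 5.76% of all genes). At 96 h they were again the 2 past 2-fold, at 1.58 and 1.19, and none was lower (7.39% and 8.16% of all genes). The 3 comparisons share the on library, so their likeness is no independent evidence.

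Set against 48 h, the 96 h library showed 0 members at least 2-fold higher and 0 lower, where 0.638% and 0.491% of all genes were. The log2 change at 96 h minus that at 48 h was 0.61 for Mllt3, 0.49 for Psip1, 0.32 for Dot1l and 0.22 for Mllt10. For Mll1, Men1, Aff1 and Aff4 it lay between -0.08 and -0.0037, and for Mllt1 it was 0.15. These are single libraries, with no replicate of either time. In the authors' deposited table that combines the 3 off libraries, Mllt3 stood at 14.3 FPKM against 4.71 FPKM, and Psip1 at 57.2 FPKM against 27.1 FPKM. These levels have their own scale and cannot be set beside the other levels printed here. The log2 changes were 1.42 for Mllt3 and 1.05 for Psip1.

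**Figure D4:**
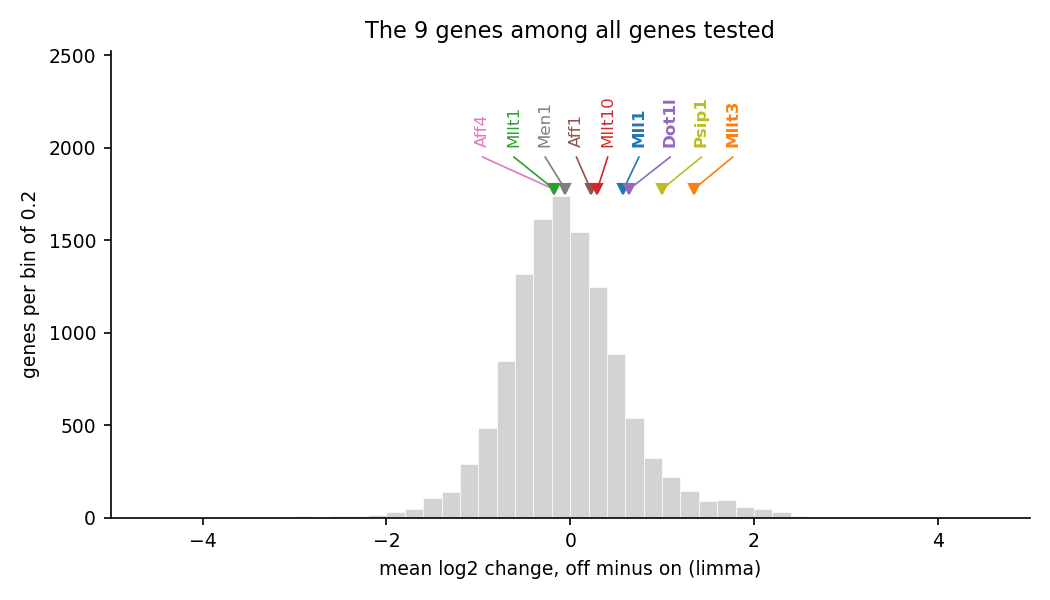
Number of genes per 0.2 of mean log2 change (limma, off minus on) for 11950 of the 11958 genes tested, the other 8 lying outside the axis, with triangles at the values of the 9 genes and names in bold for those called up. Mllt3 and Psip1 lie in the right tail, at percentiles 96.7 and 94.0, Dot1l and Mll1 at 87.9 and 86.2.

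The scaling between libraries bears on the members near 0. As deposited, genes reaching 1 FPKM on both sides had a median log2 change of -0.15, -0.09 and -0.07 at 48 h, 72 h and 96 h. Non-alpha globin transcripts made up 2.06% of total FPKM (short RNAs left out) with NRASG12V on and 6.74%, 10.5% and 11.9% with it off. With the median set to 0, the same 4 members were called up and the calls over all genes split into 1723 up and 1245 down, against 1410 up and 1817 down as deposited. With each library rescaled without globin and short RNA genes, the same 4 were called and the split was 1983 up and 1001 down. Under that rescaling Mllt1 and Aff4 moved to 0.021 and 0.0056, and Men1 to 0.14.

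Markers of several cell types moved with the same libraries, and the part of such cells in the members' changes was not tested. In bulk RNA, fewer cells of a type and less RNA per cell cannot be told apart. Of 19 measured erythroid markers, 17 were called up and none down, and the 14 outside the globins summed to 907 FPKM on and to 3043, 4504 and 4814 FPKM off; Hba-a1 and Hba-a2 were listed at 0 at 96 h. Megakaryocyte and platelet markers were called up in 9 of 15 cases and down in 1, with sums of 520 FPKM on and 761, 794 and 881 FPKM off. Pan-leukocyte genes were called down in 7 of 15 cases and up in none, and their sum went from 4947 FPKM on to 3583, 2847 and 2183 FPKM. The other 8 were not called, and mean log2 changes ran from -1.21 to 0.28. The highest was that of Ptprc, at 67.5 FPKM on and 97.3, 91.1 and 62.2 FPKM off. All 5 primary granule genes, markers of early myeloid cells (Mpo, Elane, Prtn3, Ctsg and Ms4a3), were called down, from a sum of 3035 FPKM to 386, 357 and 327 FPKM. The levels of Mllt3, Psip1, Dot1l and the uncalled Mllt10 stood in the same order over the 4 libraries as the erythroid sums. Pan-leukocyte sums stood in the reverse order. For Mll1, Aff1 and Aff4 the 72 h library was highest, for Men1 the 48 h library and for Mllt1 the on library. Any gene that rises with time shows the first order, and a link was not tested.

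Lymphoid and stromal markers were low or mixed. Of 12 lymphoid genes, 6 reached 1 FPKM in some library, with 3 called up, 2 down and a summed level of 67.4 FPKM on and 36.1 to 46.9 FPKM off. The B-cell gene Pax5 was listed at 0 in all 4 libraries, and the T-cell gene Cd3e at 0 in at least 1. Other genes of the list were present: Cd3d had 3.79 FPKM on and 13.9, 11.3 and 7.42 FPKM off. Cd3d, Cd8a and Lck were called up, and Cd79b and Nkg7, at 13.1 and 46.4 FPKM on, were called down. Endothelial and stromal genes were called up in 3 of 9 cases and down in 1, with sums of 274 FPKM on and 271 to 431 FPKM off. The early myeloid genes Mpo and Elane stood at 990 and 945 FPKM in the on library, against 120 and 104 FPKM at 96 h. They were named after their values were seen, and whether leukaemia or host cells gave these levels was not tested.

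Reads that lie on shared exons can blur 3 members where strand is not used in counting, and the strand setting is not given in the sources used here. In the GENCODE M21 annotation, Psip1 shares 483 of its 5082 exonic bases with Snapc3 on the opposite strand, Mllt10 shares 749 of 5907 with Dnajc1, and Mll1 shares 378 of 16670 with a gene that was not analysed here. Snapc3 stood at 6.03 FPKM on and 5.15, 6.07 and 5.33 FPKM off, below Psip1 in each library. Dnajc1 stood at 6.71 FPKM on and 6.27, 6.29 and 5.78 FPKM off. Neither Snapc3 nor Dnajc1 passed the test (limma, Benjamini-Hochberg adjusted p = 0.678 and 0.649).

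The wider machinery around these 9 genes was described by 5 lists. Of their 90 genes tested, chosen with earlier results of these data known, 7 were called up (7.78%), 5 down (5.56%) and 78 not, with a median change of -0.04; over all genes tested, 11.8% were called up and 15.2% down, with a median of -0.08. The counts of each list below stand against those same shares, and nothing particular to a list is read from them. In the super elongation complex and its kinase P-TEFb, 2 of 13 tested genes rose and 1 fell, with a median of 0.08. Ell2, an elongation factor of the complex, rose by 2.25 ± 0.29, from 6.15 FPKM on to 26.2, 34.7 and 39.5 FPKM (SD, n = 3; limma, Benjamini-Hochberg adjusted p = 0.00135). The cyclin gene Ccnt2, whose product partners Cdk9, rose by 0.74 ± 0.20, from 8.39 FPKM to 12.5, 15.0 and 16.9 FPKM. Aff3, a relative of Aff1 and Aff4, fell by 1.14 ± 0.09, with 4.28 FPKM on and 1.47, 1.49 and 1.22 FPKM off.

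Thus, of the AFF scaffolds tested, Aff3 was called down and Aff1 and Aff4 were not called. Differences between these genes were not tested. Among the PAF1 complex and pausing factors, 1 of 13 fell and none rose, with a median of -0.21. That gene was Ctr9, a PAF1 complex subunit, at 30.0 FPKM on and 14.9, 17.3 and 17.6 FPKM off (-0.82 ± 0.13, SD, n = 3).

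Of 19 genes of the H3 lysine 4 methyltransferase complexes, 1 rose and none fell, with a median of 0.02. It was Mll3, a relative of Mll1 that acts at enhancers, at 4.47 FPKM on and 7.66, 8.95 and 6.88 FPKM off (0.68 ± 0.17, SD, n = 3). Of 18 partners of AF9, ENL, DOT1L and LEDGF and related histone readers, 1 fell and none rose, with a median of -0.02. It was Kdm2b, a lysine 36 demethylase, at 22.7 FPKM on and 14.9, 14.5 and 14.1 FPKM off (-0.61 ± 0.04, SD, n = 3).

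Other genes that are fused to MLL in leukaemia gave 4 up and 2 down of 27 tested, with a median of -0.10. Arhgef12 rose by 1.40 ± 0.32. The forkhead factor Foxo3 rose by 1.33 ± 0.10, from 13.3 FPKM to 32.2, 36.2 and 37.0 FPKM, and its relative Foxo4 by 1.20 ± 0.19 (SD, n = 3). The clathrin adaptor gene Picalm, which takes part in iron uptake of erythroid cells, rose from 64.8 FPKM to 97.7, 130 and 131 FPKM. Gas7 fell by 1.07 ± 0.42 and the septin gene Sept9 by 0.87 ± 0.34. Of these 12 called genes, 6 (Ell2, Aff3, Ctr9, Foxo3, Foxo4 and Arhgef12) kept their call under every alternative that tested them. Ccnt2, Mll3, Picalm, Kdm2b and Sept9 lost it without the 72 h library, and Gas7, Kdm2b and Sept9 with the median set to 0. All 6 lost it with no filter on low values. Over the alternatives their limma Benjamini-Hochberg adjusted p reached 0.0870 for Ccnt2, 0.164 for Mll3, 0.111 for Picalm, 0.180 for Kdm2b, 0.111 for Sept9 and 0.0953 for Gas7.

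**Figure D5:**
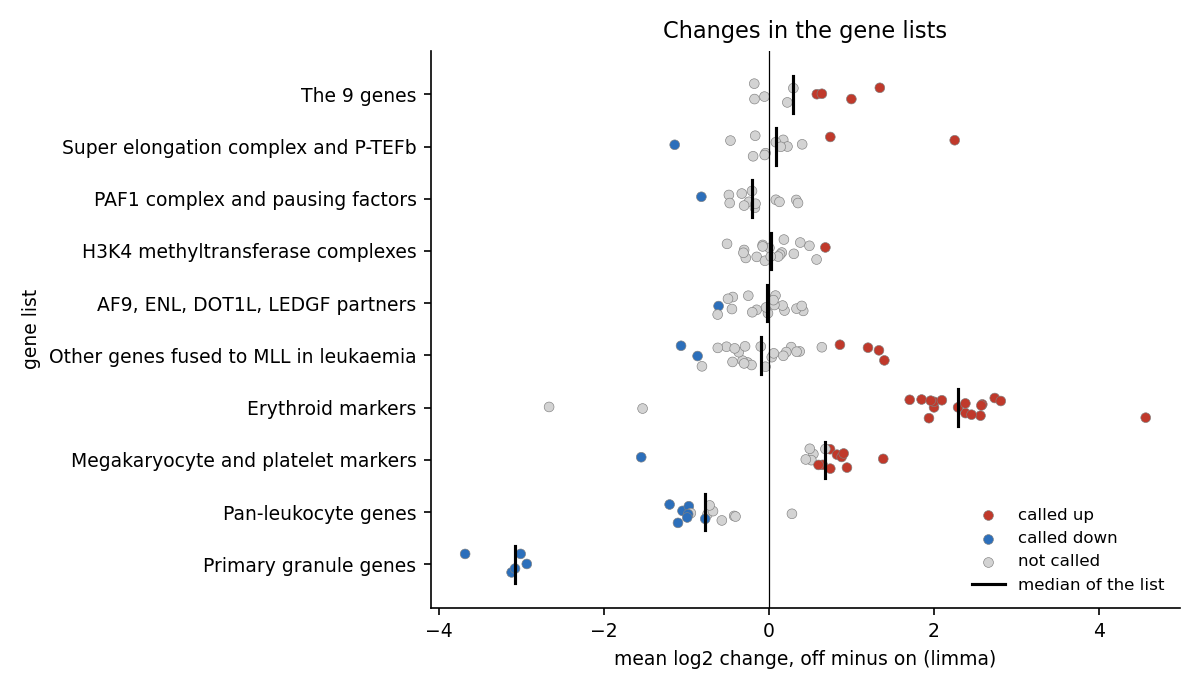
Mean log2 change (limma, off minus on) of each tested gene, 1 point per gene, in the 9 genes, the 5 lists of related machinery and 4 marker lists, with a bar at each list's median; red was called up, blue down and grey not called. The related machinery lies around 0, the erythroid markers around 2.29 and the primary granule genes around -3.08.

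The genes whose pattern came closest were sought by the Euclidean distance between the 3 log2 changes, a measure over 3 changes that share the on library, among 11193 genes at 1 FPKM or more in that library. For Mllt3 they were Gpsm2 (distance 0.057), Hace1 (0.069), Isca1 (0.072), Cul4a (0.082) and Mgll (0.095). Gpsm2 measured 9.70 FPKM on and 19.7, 29.8 and 31.5 FPKM off, and Cul4a at 20.2 FPKM on and 41.3, 55.4 and 60.7 FPKM off. For Mll1 they were Pkd2 (0.035), Gabra3 (0.038), Gba2 (0.054), Btla (0.054) and Ccdc88c (0.060). Pkd2 stood at 1.57 FPKM on and 2.71, 3.07 and 2.60 FPKM off. With so many genes searched, close matches are to be had for most patterns.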

How the data were processed

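Bulk RNA was sequenced from 4 leukaemia libraries, 1 on and 3 off. The authors deposited FPKM values for 23235 genes in 4 tables, each pairing the on library with 1 off library or with their combination. TopHat2 2.0.4, Cuffdiff and build mm9 were used, per the submitters' processing notes; the annotation, the version of Cuffdiff and the use of strand are not stated in those notes. The authors scaled each table on its own. Its on columns were proportional to those of the others (at least 99.9% of values above 0 within 0.1% of 1 factor per table), so printed levels were brought to 1 scale by it, and changes by time were taken within each table as log2((off + 1)/(on + 1)), which understates changes of low genes. FPKM hold no counts: total depth is unknown, so no counting interval is given, and the FPKM that 1 read gives, relative to the on library, was 0.873 (48 h), 0.963 (72 h) and 0.843 (96 h).

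Off and on were compared in limma 3.58.1 (run in R 4.3.3 with statmod 1.5.0, eBayes with trend and robust, 2 residual degrees of freedom) on log2(FPKM + 1), for genes reaching 1 FPKM in at least 1 library, with 2-sided p-values and Benjamini-Hochberg adjustment over all 11958. The script was run on simulated data without a time trend, in which the on library varied like the off libraries. That run cannot check whether the real on library does so. Members and lists were chosen with earlier results of these data known; 170 of 172 list entries matched a gene, 4 of them septin genes whose names the tables hold as dates. Named were all 9 members, of each list up to 3 genes per direction past the threshold by size of change, with Picalm, Mpo, Elane and the other granule genes added after their values were seen, and the 5 nearest patterns of Mllt3 and Mll1. Alternatives varied the pseudocount, filter, scaling, moderation and a time covariate, and left out each off library.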

Additional observations from a re-analysis of the deposited data

How the results depend on the processing

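Mllt3 kept its call in all 11 alternative fits and Psip1 in 10 (limma). The count of 4 members called up fell to 1 with no filter on low values, where 17493 genes were tested, and to 2 with eBayes using neither trend nor robust settings; leaving out 1 off library gave 2 to 4, the 2 without the 72 h library, and no fit called a member down. Mll1 also failed with a pseudocount of 5 FPKM (limma, Benjamini-Hochberg adjusted p = 0.0511) and a filter at 5 FPKM (0.0657). Signs turned only in members that did not pass: Men1 to 0.020 without the 72 h library, 0.046 with the median set to 0 and 0.14 with the rescaling without globin and short RNA genes, and Mllt1 to 0.021 and Aff4 to 0.0056 with that rescaling. At 48 h the count past 2-fold went from 0 to 1 (Mllt3) with a pseudocount of 0.1 FPKM, with the median set to 0 and with the rescaling, and at 72 h from 2 to 0 with a pseudocount of 5 FPKM. Over all genes, calls went from 3227 to 6024 with time as a covariate, and calls down from 1817 to 1205 without the 72 h library. No paired analysis was possible because the on group holds 1 library. Depth is unknown, and the precision of low levels such as that of Mll1 cannot be given.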
